A study of Monascus purpureus with 6 samples.

Results

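The genes described here are 4 genes of ergosterol synthesis in Monascus purpureus, a filamentous fungus grown for red pigments: ERG13_2 (gene-MAP00_005256) and ERG13_1 (gene-MAP00_002322), both named for hydroxymethylglutaryl-CoA (HMG-CoA) synthase, ERG1 (gene-MAP00_006449), named for squalene epoxidase, and ERG6_1 (gene-MAP00_005444), named for sterol methyltransferase. They were picked by locus tag and are 4 of 9836 genes in the deposited tables. All 4 passed the filter on low counts that left 9048 genes for testing. RNA was sequenced from wild-type mycelia of strain MP2022 at day 1, in 3 control libraries and in 3 libraries, called metal-ion here, from the condition that the titles describe as optimized for metal ions. The metal-ion label gives 0.0 g/L hydrated ZnSO4 and 2.5 g/L hydrated MgSO4, whereas the control label mentions 2.0 g/L of the zinc salt and 1.0 g/L of the magnesium salt and also says untreated, so the salts in the control medium are uncertain. The series belongs to a search for a zinc and magnesium ratio that serves both ethanol and pigment output.

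Ergosterol is the main sterol of fungal membranes and plays there the role that cholesterol plays in animal cells. Its synthesis starts from acetyl-CoA: HMG-CoA synthase joins acetoacetyl-CoA and acetyl-CoA into HMG-CoA, which HMG-CoA reductase turns into mevalonate. Mevalonate is built up through isopentenyl diphosphate to squalene, squalene epoxidase adds oxygen before the ring system closes, and demethylases, methyltransferases, reductases and desaturases then finish the sterol. The mevalonate branch also feeds ubiquinone, dolichol, prenylated proteins and haem A, and HMG-CoA is formed as well when leucine is broken down in mitochondria. Squalene epoxidase and the sterol demethylase CYP51 are the targets of allylamine and azole antifungals. In Saccharomyces cerevisiae, HMG-CoA synthase is encoded by a single gene, ERG13.

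Library totals ran from 33638067 to 38927910 counts. Metal-ion replicate 2 stood apart from the other metal-ion libraries, with a chi-square of counts, divided by its degrees of freedom, of 118 and 110 against replicates 1 and 3, compared with 36.7 between replicates 1 and 3 and 14.3 to 21.7 between control libraries. Where a call or count below changed without it, that value is also given.

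In metal-ion mycelia the mRNA of ERG13_2 rose, while ERG13_1, ERG1 and ERG6_1 did not pass the test and had log2 fold changes below 0. ERG13_2 had 114.7, 116.3 and 123.9 FPKM in control replicates 1 to 3 and 330, 324 and 344 FPKM in metal-ion replicates 1 to 3. FPKM divides counts by gene length and library size, so it allows levels of different genes to be set side by side. The lowest metal-ion library of ERG13_2 was far above the highest control library, and metal-ion replicate 2 was close to the other metal-ion libraries. In bulk mycelium, a different mix of cells and a different amount of RNA per cell cannot be told apart. The group means were 118 ± 4.93 and 333 ± 10.5 FPKM (SD, n = 3), a ratio of 2.81 on the FPKM scale. On the count scale with TMM normalization, the rise was 2.60-fold (edgeR quasi-likelihood test, adjusted p = 1.16e-05), and across 16 alternative analyses the log2 fold change kept between 1.35 and 1.49, past the threshold in each. Of all tested genes, 12.0% were called at an adjusted p under 0.05, 6.66% as higher and 5.32% as lower in metal-ion, and 2.06% had a larger absolute fold change than ERG13_2. By mean FPKM, 89.9% of tested genes lay below ERG13_2 in control and 96.3% in metal-ion mycelia.

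**Figure D1:**
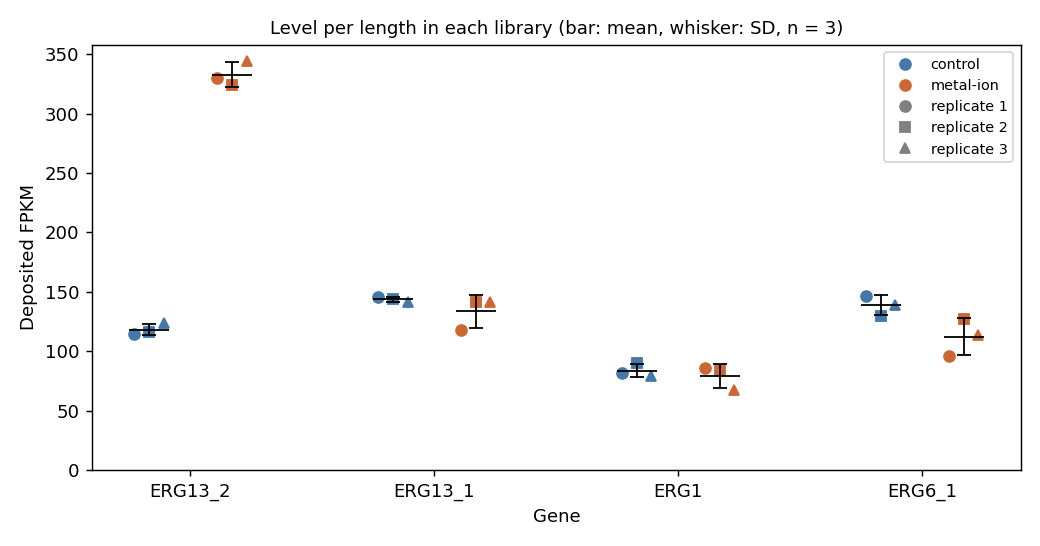
Deposited FPKM (y axis, linear from 0) of the 4 genes in each of 6 libraries, with control in blue and metal-ion in orange, marker shapes for replicate numbers, bars for the mean and whiskers for the SD of 3 libraries. ERG13_2 stands at 114.7 to 123.9 FPKM in control and 324 to 344 FPKM in metal-ion libraries, while the other 3 genes stay between 67.8 and 147 FPKM in every library.

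ERG13_1, the other HMG-CoA synthase gene, had 145.9, 143.8 and 141.1 FPKM in control and 117.6, 141.6 and 141.4 FPKM in metal-ion libraries. Only metal-ion replicate 1 lay apart, and on the FPKM scale the groups overlapped. On the TMM-scaled count scale they did not, at 364 to 377 CPM (counts scaled to library size) in control and 263 to 361 CPM in metal-ion libraries, as in 33.3% of all tested genes. The log2 fold change was -0.21 ± 0.13 (SE; edgeR adjusted p = 0.304). Without metal-ion replicate 2 it was -0.31 ± 0.10 and passed (edgeR adjusted p = 0.0446), in a fit that called 16.5% of all genes as lower.

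The order of the HMG-CoA synthase genes was opposite in the 2 groups. Per length, ERG13_2 had 0.786, 0.808 and 0.878 of the ERG13_1 level in control libraries and 2.80, 2.29 and 2.43 times that level in metal-ion libraries. ERG13_1 was thus the higher of the pair in 3 of 3 control libraries and ERG13_2 in 3 of 3 metal-ion libraries. The log2 ratio of their counts, which does not depend on how libraries are scaled, was higher in metal-ion mycelia by 1.60 ± 0.10 (SE, n = 3 per group; exact two-sided permutation p = 0.1, the smallest that 3 against 3 libraries can give). Leaving out any single library kept this difference between 1.52 and 1.67.

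As a share of the summed FPKM of both genes, ERG13_2 took 44.0, 44.7 and 46.8% in control and 73.7, 69.6 and 70.9% in metal-ion libraries. The means were 45.2 ± 1.43% and 71.4 ± 2.11% (SD, n = 3; exact two-sided permutation p = 0.1). The sum itself was 261, 260.1 and 265 FPKM in control and 447, 465 and 486 FPKM in metal-ion libraries, a ratio of 1.78 between the means of 262 ± 2.69 and 466 ± 19.1 FPKM. The part of ERG13_1 in that sum was 144 ± 2.43 FPKM in control and 134 ± 13.8 FPKM in metal-ion mycelia.

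The ERG13 genes are separate loci on different chromosomes of the annotated KUPM5 assembly, which was used only for gene names and gene order. Counts divided by FPKM give lengths of about 1448 bases for ERG13_2 and 2494 bases for ERG13_1, so ERG13_1 collects more reads at the same FPKM. Their sequences were not analysed here, and whether the counting divided reads between them was not tested.

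ERG1 catalyses the first oxygen-requiring step after squalene. It had 81.6, 90.1 and 79.4 FPKM in control and 86.1, 83.9 and 67.8 FPKM in metal-ion libraries. On the FPKM scale the groups overlapped, and metal-ion replicate 3 alone lay below the control range. On the CPM scale they also overlapped, but metal-ion replicates 1 and 3, at 81.9 and 69.9 CPM, lay below the control range of 87.2 to 100.5 CPM. The log2 fold change of ERG1 was -0.19 ± 0.11 (SE, edgeR adjusted p = 0.293). Without metal-ion replicate 2 it was -0.29 ± 0.10 (edgeR adjusted p = 0.0479), in a fit that called 16.5% of all genes as lower.

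ERG6_1 acts downstream of squalene epoxidase and adds a side-chain methyl group that cholesterol lacks, with S-adenosylmethionine as the donor. It had 146.8, 129.98 and 139.4 FPKM in control and 96.3, 127.4 and 113.4 FPKM in metal-ion libraries. All metal-ion libraries were below all control libraries, with replicate 2 just under the lowest control. On the CPM scale the groups also did not overlap, as in 33.3% of all tested genes. The log2 fold change was -0.40 ± 0.14 and did not pass (SE; edgeR adjusted p = 0.0924). ERG6_1 passed in DESeq2 (log2 fold change -0.42, adjusted p = 0.0317), which called 8.62% of genes as lower. It also passed without metal-ion replicate 2 (log2 fold change -0.56 ± 0.10, edgeR adjusted p = 0.00190), in a fit that called 16.5% of all genes as lower.

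In control mycelia the order of the mean levels per length was ERG13_1 at 144 FPKM, ERG6_1 at 139 ± 8.45 FPKM, ERG13_2 at 118 FPKM and ERG1 at 83.7 ± 5.64 FPKM. The ranges of ERG13_1 and ERG6_1 overlapped there, and those of the other neighbours in the order did not. In metal-ion mycelia it was ERG13_2 at 333 FPKM, ERG13_1 at 134 FPKM, ERG6_1 at 112 ± 15.5 FPKM and ERG1 at 79.3 ± 9.99 FPKM, and again the ranges of ERG13_1 and ERG6_1 overlapped. Spread between replicates was wider in metal-ion libraries for each gene. The coefficient of variation of CPM went from 3.99% to 6.66% for ERG13_2 and from 1.94% to 16.1% for ERG13_1. For ERG1 it went from 7.71% to 13.1% and for ERG6_1 from 4.99% to 20.3%. Counts over all genes also differed more between metal-ion than between control libraries, as given above, so nothing particular to these genes is read from the spread.

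**Figure D2:**
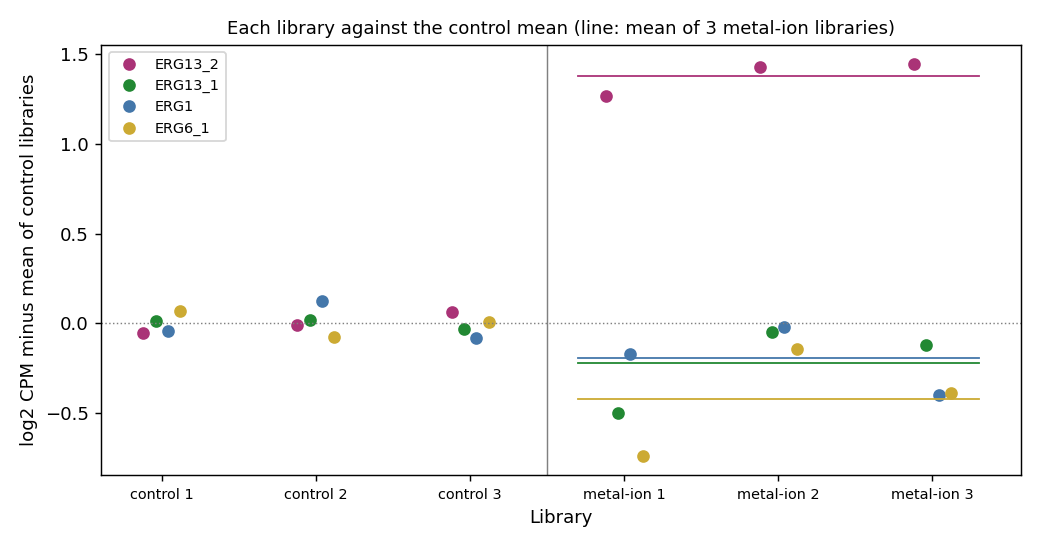
Log2 CPM of each gene minus its mean over the control libraries (y axis), by library (x axis), with a line at the mean of the 3 metal-ion libraries. ERG13_2 lies 1.27 to 1.44 above its control mean in the metal-ion libraries, and the other 3 genes lie between -0.74 and -0.02 relative to theirs, with metal-ion replicate 2 nearest to 0 for each of these 3.

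The ratio of ERG13_2 to either gene of a later step was higher in every metal-ion library than in any control library. The log2 count ratio of ERG13_2 to ERG1 was higher in metal-ion mycelia by 1.57 ± 0.16 and that of ERG13_2 to ERG6_1 by 1.80 ± 0.14 (SE; both exact permutation p = 0.1). Per length, ERG13_2 went from 1.29 to 1.56 times the ERG1 level in control libraries to 3.83 to 5.07 times in metal-ion libraries. Relative to ERG6_1 it went from 0.781 to 0.895 times to 2.54 to 3.42 times.

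The other 3 genes differed less between groups relative to each other. The ratio of ERG13_1 to ERG1 differed between groups by -0.03 ± 0.18 on the log2 scale (exact permutation p = 0.9), that of ERG1 to ERG6_1 by 0.23 ± 0.20 (exact permutation p = 0.3) and that of ERG13_1 to ERG6_1 by 0.20 ± 0.07 (exact permutation p = 0.1, groups not overlapping). For the first of these pairs the error is wider than the difference, so its direction is not set. Over the 6 pairs compared, the groups did not overlap in 4, against 33.1% of all pairs of tested genes with counts in every library. Since 3 of the 4 share ERG13_2, they are not separate observations. The adjusted p of each of those 4 was 0.15 by Benjamini-Hochberg, so none could pass at this sample size.

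Of the symbols searched for the sterol pathway, 8 genes were found and tested, 3 of the early mevalonate steps and 5 between squalene and ergosterol. ERG13_2 was the only 1 of the 8 to pass in edgeR, against 12.0% of all tested genes. The median log2 fold change was -0.18 for the 8 genes and 0.03 for all tested genes, and 6 of the 8 values were below 0. The 8 include the 4 genes picked by locus tag, which were chosen with earlier results known. Without them, 0 of the other 4 passed, their median was -0.13 and 3 of the 4 values were below 0. With scaling by total counts, which moved the median of all genes up by 0.11, the median of the 8 was -0.08, and CYP51B_1 also passed as higher (log2 fold change 0.48, edgeR adjusted p = 0.0239), in a fit that called 9.50% of genes as higher. Without metal-ion replicate 2 the count changed to 2 that rose, ERG13_2 and CYP51B_1, and 5 that fell, ERG13_1, IDI1, ERG1, ERG6_1 and CYP51B_2, in a fit that called 31.0% of all genes, 14.4% as higher and 16.5% as lower.

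IDI1 (MAP00_007334), named for the isomerase that makes dimethylallyl diphosphate, was the third gene found among the early steps. It had 75.8, 87.2 and 76.7 FPKM in control and 70.9, 76.9 and 71.6 FPKM in metal-ion libraries, with overlapping groups. Its log2 fold change was -0.24 ± 0.11 (SE; edgeR adjusted p = 0.175), so ERG13_2 was the only early gene found here that rose. Without metal-ion replicate 2, IDI1 passed as lower (log2 fold change -0.33, edgeR adjusted p = 0.0206), in a fit that called 16.5% of all genes as lower. HMG-CoA reductase, the mevalonate kinases and squalene synthase had no matching symbol and were not analysed here.

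CYP51B_1 (MAP00_001747), named for the sterol demethylase that azoles inhibit, was the most abundant of the 8 genes. It had 911, 883 and 774 FPKM in control and 1232, 1038 and 1321 FPKM in metal-ion libraries. All metal-ion libraries were above all control libraries, also in CPM, where the groups of 33.3% of all tested genes did not overlap. The log2 fold change of 0.37 ± 0.13 did not pass (with SE, edgeR adjusted p = 0.0832). DESeq2 called it (log2 fold change 0.35, adjusted p = 0.0240), along with 8.95% of all genes as higher. Without metal-ion replicate 2, CYP51B_1 passed in edgeR (log2 fold change 0.42, adjusted p = 0.00526), where 14.4% of all genes were called as higher. CYP51B_2 (MAP00_001968), which shares the symbol, had 146.6, 144.4 and 139.9 FPKM in control and 131.7, 146.5 and 133.2 FPKM in metal-ion libraries. Its log2 fold change was -0.17 ± 0.11 (with its SE; edgeR adjusted p = 0.341). Without metal-ion replicate 2 that value was -0.28 and passed (edgeR adjusted p = 0.0217), where 16.5% of all genes were called as lower.

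ERG6_2 (MAP00_008741), the other gene named for sterol methyltransferase, had 174.5, 176.2 and 164.6 FPKM in control and 189.6, 173.5 and 163.9 FPKM in metal-ion libraries. The groups overlapped on both sides, and its log2 fold change of -0.08 ± 0.10 did not pass (with SE; edgeR adjusted p = 0.621).

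For each of the 3 symbols that the annotation gives to a pair of sterol genes, the ratio within the pair did not overlap between the groups, which held for 33.1% of all pairs of tested genes with counts in every library. Within a library, CYP51B_1 had 5.53 to 6.21 times the CYP51B_2 level per length in control and 7.08 to 9.92 times in metal-ion mycelia, a log2 difference of 0.55 ± 0.16 (SE). ERG6_1 had 0.738 to 0.847 of the ERG6_2 level in control and 0.508 to 0.734 in metal-ion mycelia, a log2 difference of -0.34 ± 0.18. In the ERG6 pair metal-ion replicate 2, at 0.734, nearly touched control replicate 2, at 0.738. The CYP51B and ERG6 pairs were set side by side after their values were seen, and their differences are given without a test. ERG13 was the only pair in which the more abundant gene per length changed.

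**Figure D3:**
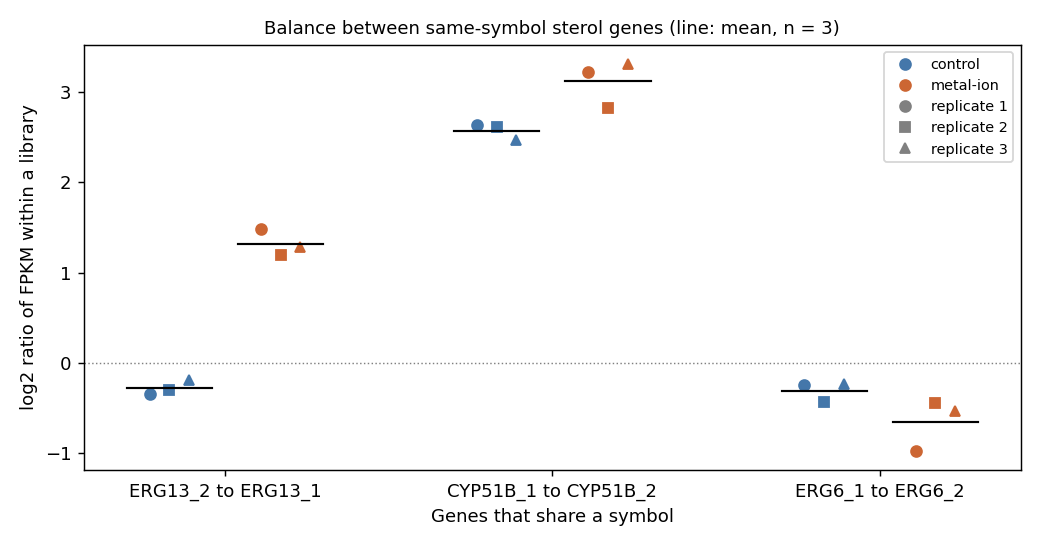
Log2 ratio of the FPKM of 2 genes with the same symbol within a library (y axis) for 3 pairs (x axis), with control in blue, metal-ion in orange, marker shapes for replicate numbers and a line at the mean of 3 libraries. The ERG13 pair crosses 0, from ratios of 0.786 to 0.878 in control to 2.29 to 2.80 in metal-ion libraries, while the CYP51B pair stays above 0 and the ERG6 pair below 0.

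HMG-CoA also arises from leucine, and 2 genes of that route were found. BAT2 (MAP00_006474), named for the branched-chain aminotransferase that interconverts leucine and its keto acid, rose from 147, 151 and 156 FPKM in control libraries to 249.95, 205 and 244 FPKM in metal-ion libraries (log2 fold change 0.50 ± 0.10, edgeR adjusted p = 0.00989). All metal-ion libraries were above all control libraries, also in CPM, where the groups of 33.3% of all tested genes did not overlap. The call was lost without control replicate 1 or 2 (edgeR adjusted p = 0.0739 and 0.0639). MCCC2 (MAP00_004783), named for a subunit of the methylcrotonyl-CoA carboxylase that works between leucine and HMG-CoA, fell from 11.5, 10.9 and 10.3 FPKM to 4.92, 6.72 and 2.12 FPKM (log2 fold change -1.34 ± 0.32, edgeR adjusted p = 0.0256). It lost its call without any single library other than metal-ion replicate 2 or 3, with adjusted p from 0.0752 to 0.0966, and in limma on log2(FPKM + 0.1) and without a filter (adjusted p = 0.0764 and 0.106). Its log2 fold change was -1.80 without metal-ion replicate 2. The 2 genes of this list thus passed in opposite directions, where 6.66% of all tested genes were called as higher and 5.32% as lower.

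The remaining lists held 1 gene each. NPC2 (MAP00_001599), named for a sterol-binding transport protein, stood at 160 ± 2.83 and 175 ± 6.63 FPKM and had 0.02 ± 0.09 as its log2 fold change (edgeR adjusted p = 0.920). COX10 (MAP00_008826), named for the farnesyltransferase that starts haem A synthesis, stood at 19.3 ± 2.14 and 19.3 ± 2.47 FPKM, with a log2 fold change of -0.11 ± 0.12 (edgeR adjusted p = 0.568). SID4 (MAP00_006924) was matched to the siderophore list by its symbol alone, which fungi use for more than one kind of protein, and fell from 6.07, 5.98 and 7.35 to 2.50, 4.21 and 3.44 FPKM (log2 fold change -1.03 ± 0.22, edgeR adjusted p = 0.0153). Its call was lost on removal of control replicate 1, control replicate 3 or metal-ion replicate 3 (adjusted p = 0.0526 to 0.0729) and in limma without a filter (adjusted p = 0.0637). Lists for electron donors of sterol enzymes, sterol regulators and acetyl-CoA supply matched no symbol.

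**Figure D4:**
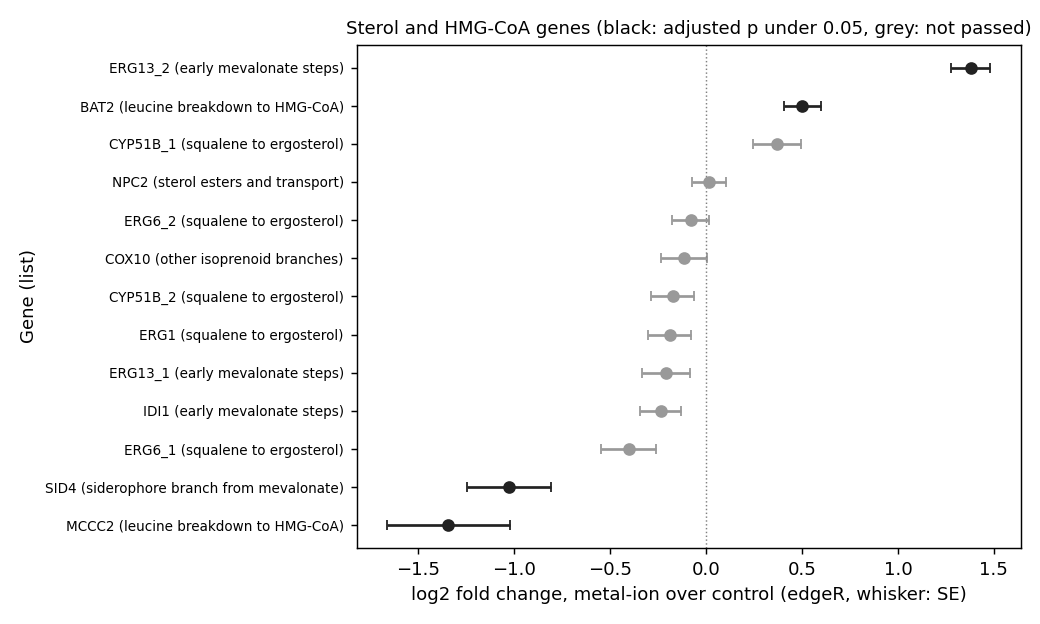
Log2 fold change of metal-ion over control (x axis, edgeR, whiskers for the SE) of the 13 genes found in 6 lists (y axis), with genes at an adjusted p under 0.05 in black and the others in grey. ERG13_2 at 1.38 is the highest value and MCCC2 at -1.34 the lowest. Of the 13 genes, 2 were called as higher, 2 as lower and 9 did not pass. Among all tested genes 6.66% were called as higher and 5.32% as lower.

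The genes next to the 4 sterol genes were read by their order in the annotation. The 3 annotated neighbours on each side of ERG13_2 had log2 fold changes from -0.09 to 0.32 and edgeR adjusted p of 0.162 or more. Of the 21 neighbours tested around the 4 genes, 2 fell and 0 rose, against 5.32% called as lower and 6.66% as higher among all genes. Without metal-ion replicate 2 the counts were 3 that fell and 4 that rose, where 16.5% and 14.4% of all genes were called. At an unadjusted p under 0.05 there were 6 of 21 in either direction, against 29.0% of all tested genes. DESeq2 called 1 higher and 2 lower, against 8.95% and 8.62% of all genes. These shares are close to those of all genes or rest on few calls, and nothing particular to the neighbours is read from them. Both that fell flank ERG1: MAP00_006448 had a log2 fold change of -0.73 ± 0.17 and MAP00_006451 of -0.84 ± 0.21 (with SE; edgeR adjusted p = 0.0225 and 0.0295). Removal of control replicate 1, control replicate 2 or metal-ion replicate 1 ended the call of MAP00_006448, and that of MAP00_006451 on removal of any single library except control replicate 2 and metal-ion replicate 2. With total-count scaling MAP00_006451 also did not pass (edgeR adjusted p = 0.0652), nor did it in the 3 limma fits (adjusted p = 0.0935 to 0.159), and MAP00_006448 did not in limma without a filter on low FPKM (adjusted p = 0.0529). No annotated neighbour overlapped any of the 4 genes in the assembly used.

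The genes most like ERG13_2 were sought among 6263 other genes that averaged 10 CPM or more, by the Euclidean distance between log2 CPM values centred on each gene's mean over the 6 libraries. The nearest were MAP00_003998 at 0.169, MAP00_003434 at 0.178, MAP00_002580 at 0.212, MAP00_003467 at 0.218 and MAP00_000443 at 0.230, where the median distance was 1.75. Each of these 5 is known here by locus tag only. Their log2 fold changes were 1.44, 1.52, 1.42, 1.30 and 1.35. All distances are taken over the same 6 libraries in 2 groups, so a gene with a like difference between groups comes out near.

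ERG1, ERG13_1 and ERG6_1 were not near ERG13_2, at distances of 1.97, 1.98 and 2.23, all farther than the median gene. The sterol genes found by symbol alone were not compared with ERG13_2 in this way. ERG13_1 and ERG6_1 were nearer to each other, at 0.301, than either was to ERG1, at 0.452 and 0.567. They were not among each other's nearest genes. Of 6263 genes, ERG6_1 ranked 678 in nearness to ERG13_1, and ERG13_1 ranked 261 in nearness to ERG6_1. The median distances were 0.550 from ERG13_1 and 0.718 from ERG6_1. The genes nearest to ERG13_1 were MAP00_001417, MAP00_008229, MAP00_005008, MAP00_001863 and ALA1, the last named for alanyl-tRNA synthetase, at distances of 0.0890 to 0.102. ERG1 had MAP00_007141, MAP00_008040, MAP00_002479, MAP00_002002 and MAP00_006589 nearest, at 0.0897 to 0.110. ERG6_1 had MAP00_000012, MAP00_008634, MAP00_004023, MAP00_003439 and SVF1 nearest, at 0.113 to 0.128. These 15 genes had log2 fold changes from -0.46 to -0.13 and edgeR adjusted p of 0.0555 or more. They were picked for values close to those of ERG13_1, ERG1 and ERG6_1 in these same libraries. Falls like those of the 3 genes follow from that choice, so the counts of calls among the 15 are not separate observations. Without metal-ion replicate 2, 9 of the 15 fell in edgeR, where 16.5% of all genes were called as lower, and DESeq2 called 3 as lower, against 8.62%. SVF1, the nearest of the 15 to the threshold, was called in both of these, with upper-quartile scaling and with a minimum of 100 counts (adjusted p = 0.00173, 0.0139, 0.0460 and 0.0470).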

How the data were processed

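The authors deposited whole-number counts and FPKM per gene; TopHat2 is named in the submitters' processing notes, without a version, and the counting tool, build and annotation are not given in the sources used here. Per the labels' protocols, mRNA libraries were made with a NEBNext Ultra kit. Nothing in the labels says that replicates were separate cultures, so the p-values rest on differences between these libraries that may be technical only. The deposited counts were tested with edgeR 4.0.16 (R 4.3.3; quasi-likelihood test, TMM, default low-count filter, two-sided, Benjamini-Hochberg over 9048 genes, threshold 0.05), after a check on simulated data. CPM use TMM-scaled totals. The SE of an edgeR fold change is its size over the root of F, and that of a ratio comes from the SDs of both groups. Ratios between genes were compared by exact two-sided permutation. Symbols came from assembly ASM2599979v1; no coordinates are given, since the authors' build is unknown. Named genes were the 4 members, list genes found by symbol, annotated neighbours (3 on each side, described by ranges unless called) and the 5 nearest genes per member. Members and lists were chosen with earlier results of these data known. Alternatives used DESeq2 1.42.0, limma 3.58.1 on log2(FPKM + 1) or log2(FPKM + 0.1) for genes with a mean FPKM of at least 1, other scalings and filters, the replicate block, and the removal of each library.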

Additional observations from a re-analysis of the deposited data

How the results depend on the processing

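ERG13_2 passed in all 16 alternatives and kept its direction. ERG13_1, ERG1 and ERG6_1 stayed below 0 in all of theirs. They passed without metal-ion replicate 2 (log2 fold change -0.31, -0.29 and -0.56), in a fit that called 16.5% of all genes as lower. Leaving out single libraries gave -0.31 to -0.088 for ERG13_1, -0.29 to -0.095 for ERG1, -0.56 to -0.27 for ERG6_1 and 1.35 to 1.43 for ERG13_2. DESeq2 also called ERG6_1 (-0.42). The ratio of ERG13_1 to ERG1 ranged from -0.18 to 0.13 without single libraries, so its sign is not set. Values near 0 turned sign: ERG6_2 to 0.028 with total-count scaling and to 0.030 in the 3 limma fits, COX10 to 0.00038, 0.00033 and 0.00038 in the limma fits with pseudocounts 1 and 0.1 and without a filter, and NPC2 to -0.0015 with RLE scaling and in DESeq2 and to between -0.014 and 0.030 without single libraries. The cause was not tested. The count of all genes called, 1084 (603 up, 481 down), was 860 up and 344 down with total-count scaling, 628 up and 171 down with limma on log2(FPKM + 1), 638 and 497 with limma on log2(FPKM + 0.1) and on log2(FPKM + 1) without a filter, and 348 to 2829 without single libraries. The replicate block gave 1365 calls, 15.1% of tested genes, and changed no call among the 13 list genes. It called SVF1 as lower (-0.48, edgeR adjusted p = 0.0409), and 1 of the 21 neighbours as higher beside 2 as lower. Blocked exact tests of the ratios could not go below p = 0.25. Same-numbered libraries correlated at 0.05, 0.21 and 0.12 in their deviations from the group mean. For control replicates 2 and 3 the same-numbered metal-ion library gave the highest correlation. Control replicate 1 correlated at 0.06 with metal-ion replicate 3, little above its 0.05 with metal-ion replicate 1. Whether the numbers pair the samples is therefore not settled, and the replicate block is given as an alternative only. With 3 libraries per group, exact tests cannot pass 0.05.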
